A study of Homo sapiens with 62 samples.

Results

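Messenger RNA of 9 genes of death receptor signalling was followed in 5 human cell lines whose clones had lost 1 extra copy of a chromosome arm. The genes were chosen by name and comprise the ligand TRAIL (TNFSF10), its death receptors DR4 (TNFRSF10A) and DR5 (TNFRSF10B), its decoy receptors DcR1 (TNFRSF10C), DcR2 (TNFRSF10D) and osteoprotegerin (TNFRSF11B), the receptor FAS, the initiator caspase CASP8 and its inhibitor CFLAR. All 9 had 1 row in every table, out of 58735 genes in the tables of A2058, HCT116, AGS and MCF10A and 48162 genes in those of A2780. The study compared parental cells (WT), which keep the gained arm, with single-cell clones that lost it by ReDACT, a collection of chromosome engineering methods whose versions the labels call NS, TR and CO. All cells were grown for 24 hours after plating, with no drug or ligand named in the labels.

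TRAIL is a membrane or soluble ligand of the tumour necrosis factor family that can trigger apoptosis in cancer cells. Its binding to DR4 or DR5, like the binding of FAS ligand to FAS, gathers the adaptor FADD and caspase-8 into a signalling complex in which caspase-8 becomes active, and CFLAR (c-FLIP) competes for the same complex. Decoy receptors bind TRAIL without a working death domain, and osteoprotegerin is a secreted decoy that also binds the bone regulator RANKL. TNFRSF10B and FAS are known targets of the transcription factor p53, and TNFSF10 and CASP8 are known to respond to interferon.

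A2058, a melanoma line with gains of 1q, 7p and 8q, had 4 WT libraries, 4 of 1q-loss (2 clones), 6 of 7p-loss (3 clones) and 4 of 8q-loss (2 clones), all clones made by ReDACT-CO. HCT116, a colorectal cancer line with a gain of 8q, had 2 WT libraries and 4 of 8q-loss (2 clones, ReDACT-CO). AGS, a gastric cancer line with a gain of 1q, had 1 WT library, 2 of TK+ clones that carry an integrated TK cassette and keep the gain, and 5 of 1q-loss from 5 clones (clones 1, 4, 6 and 7 by ReDACT-NS and clone 11 by ReDACT-CO). A2780, an ovarian cancer line with a gain of 1q, had 2 WT, 2 TK+ and 6 1q-loss libraries (3 clones, ReDACT-NS). MCF10A, a breast epithelial line with a gain of 1q, had 2 WT and 8 1q-loss libraries (4 clones), and the same numbers (2 hRas WT and 8 hRas 1q-loss) with expression of hRASV12, an activated RAS protein. In both MCF10A sets clones 1 to 3 came from ReDACT-TR and clone 4 from ReDACT-CO. Libraries of 1 clone share their cells, so a p-value over libraries measures in part the spread within a clone.

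The start-site windows of TNFSF10 and CASP8 are shown because these 2 genes and interferon-induced genes were higher in the same A2058 1q-loss clones. RefSeq windows of 250 bases before and 50 after each start (GRCh38.p14) were searched on both strands for GAAA and GAAA parted by NN, the core of the interferon-stimulated response element. The core was present in 3.57% of all 34943 windows. It was found in the only window of TNFSF10 and in 1 of 3 windows of CASP8, and in 0 of 3 windows of FAS and 0 of 4 of CFLAR. A second motif, TTCNNNGAA, which can share a GAA with the core, was in 7.66% of all windows, in 1 of 3 windows of CASP8 and in none of TNFSF10, FAS or CFLAR. Capitals mark the core as read on the gene's strand, 5′ to 3′, at chr3:172523431-172523680 (minus strand) for the 250 bases before the TNFSF10 start and at chr2:201233450-201233479 (plus strand) for 30 bases around the CASP8 start, where the core spans bases -3 to 7.
TNFSF10: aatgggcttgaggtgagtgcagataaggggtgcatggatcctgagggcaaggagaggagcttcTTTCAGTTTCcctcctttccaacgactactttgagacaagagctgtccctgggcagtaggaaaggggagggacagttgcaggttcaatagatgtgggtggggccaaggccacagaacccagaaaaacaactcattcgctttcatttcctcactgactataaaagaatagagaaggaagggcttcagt
CASP8: gagtttttggTTTCTGTTTCaccttgtgtc
A match is a description of letters, not a shown binding site. The RefSeq starts used here lie inside the genes as placed by the coordinates given below. The printed bases thus fall partly (TNFSF10) or wholly (CASP8) inside those coordinates.

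In GRCh38, the 4 TNFRSF10 genes lie side by side on the short arm of chromosome 8, TNFRSF10B at 23020133 to 23069179 (minus strand), TNFRSF10C at 23102590 to 23117437 (plus), TNFRSF10D at 23135588 to 23164030 (minus) and TNFRSF10A at 23190452 to 23225126 (minus). TNFRSF11B lies on 8q at 118923557 to 118952200 (minus), and it is the only 1 of the 9 on an arm that was targeted. TNFSF10 lies on 3q at 172505508 to 172523507 (minus), FAS on 10q at 88990582 to 89015785 (plus), and CFLAR (201116104 to 201176687, plus) and CASP8 (201233443 to 201287711, plus) are neighbours on 2q. The A2780 tables use GRCh37 coordinates.

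The libraries held 15042068 to 30984036 counts. Values are CPM, a gene's counts scaled to one fixed library total, adjusted within a line by TMM, an edgeR scaling for RNA composition, so levels set across lines rest on separate scalings. The targeted arm was lower in every loss library, with a median log2 shift of its genes between -0.29 and -0.67. Line markers were checked first. A2058 WT expressed the melanocyte genes SOX10 (470 to 651 CPM) and MITF (138 to 210 CPM), but the 4 A2058 1q-loss libraries held 24.8 to 82.1 and 8.31 to 23.9 CPM, below all of the other 14 A2058 libraries. PMEL was also lower in 1q-loss than in the other A2058 libraries (9.82 to 25.6 CPM against at least 186 CPM). MLANA did not separate 1q-loss (0.831 to 2.08 CPM) from 7p-loss (1.59 to 5.03 CPM) and 8q-loss (1.59 to 2.7 CPM), and all 3 lay below WT (13.9 to 23.7 CPM). Whether the identity of these 2 clones as A2058 was checked is not given in the sources used here, and each value of A2058 1q-loss rests on their label. In HCT116, VIL1 and CDH17 were at most 0.512 CPM, while EPCAM was at least 53.8 CPM and CDX2 was 32.4 to 47.1 CPM. In A2780, 3 of 4 ovarian epithelial markers (PAX8, WT1 and EPCAM) were at most 1.47 CPM, and the fourth, KRT18, was 38.4 and 38.6 CPM in WT but 2.25 to 42.9 CPM over all libraries. AGS expressed EPCAM, KRT18 and VIL1, while CDH17 was 67.9 CPM in WT, 111 and 113 in TK+ and 0.913 to 39.4 in 1q-loss. MCF10A WT expressed KRT5 and TP63. Of the markers of other cells, PTPRC was at most 0.389 CPM in any library, while LYZ in AGS was 477 CPM in WT, 83.3 and 1944 in TK+ and 20.9 to 120 in 1q-loss.

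In cells that kept the gain, DR5 was the highest of the 9 genes per kilobase of gene model in each of the 5 lines. TNFRSF10B stood at 65.8 ± 3.18 CPM per kb (SD, n = 3) in AGS, 33.7 ± 2.58 (n = 2) in MCF10A, 24.4 ± 1.47 (n = 4) in A2780, 22.3 ± 2.47 (n = 4) in A2058 and 19.2 ± 1.58 (n = 2) in HCT116, and in every line its lowest library lay above the highest of any other member. The gene models differ between the A2780 and the other tables, so between lines CPM was used. In CPM, TNFRSF10B was 339 in AGS and 174 in MCF10A, and the ranges of A2058 (106 to 133), A2780 (94.2 to 107) and HCT116 (93.4 to 105) overlapped one after the other.

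The other TRAIL receptors were not detected in every line. TNFRSF10A was 57.9 ± 3.07 CPM in MCF10A, 42.8 ± 0.962 in AGS, 27.9 ± 3.53 in HCT116 and 6.53 ± 0.737 in A2058, in that order with no overlap of ranges, and 0 to 3 counts in every A2780 control. Its neighbour TNFRSF10D was 52.0 ± 13.4 CPM in MCF10A and 51.5 ± 6.19 in AGS, which overlapped, then 29.6 ± 2.19 in A2780 and 20.2 ± 4.45 in HCT116, and at most 3 counts in A2058. TNFRSF10C was highest in A2780 (3.18 ± 0.809 CPM), where TNFRSF10A was at the floor. It was 0 in both MCF10A WT libraries and at most 1 count in AGS controls. A count of 0 allows up to 0.0987 to 0.2 CPM, the level of 3 counts, depending on the library.

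FAS was 45.1 ± 5.44 CPM in MCF10A and 32.5 ± 7.72 in AGS, 9.29 ± 1.53 in A2058 and 7.96 ± 2.92 in HCT116 (overlapping ranges), and 1.34 ± 1.34 in A2780. CASP8 varied less, from 46.8 ± 2.08 CPM in AGS through A2058 (37.2 ± 1.02), MCF10A (37.0 ± 3.61) and A2780 (28.0 ± 3.88) to HCT116 (13.8 ± 6.24). CFLAR ranged from 116 ± 15.8 CPM in AGS to 12.5 ± 1.03 in HCT116, with no overlapping neighbours. The ligand TNFSF10 was low everywhere, at most 28 counts in a control library and 0 in all 6 HCT116 libraries, and TNFRSF11B was at most 9 counts. FAS ligand (FASLG), whose gene lies on 1q, was at most 0.146 CPM in any library and was tested in no comparison.

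**Figure D1:**
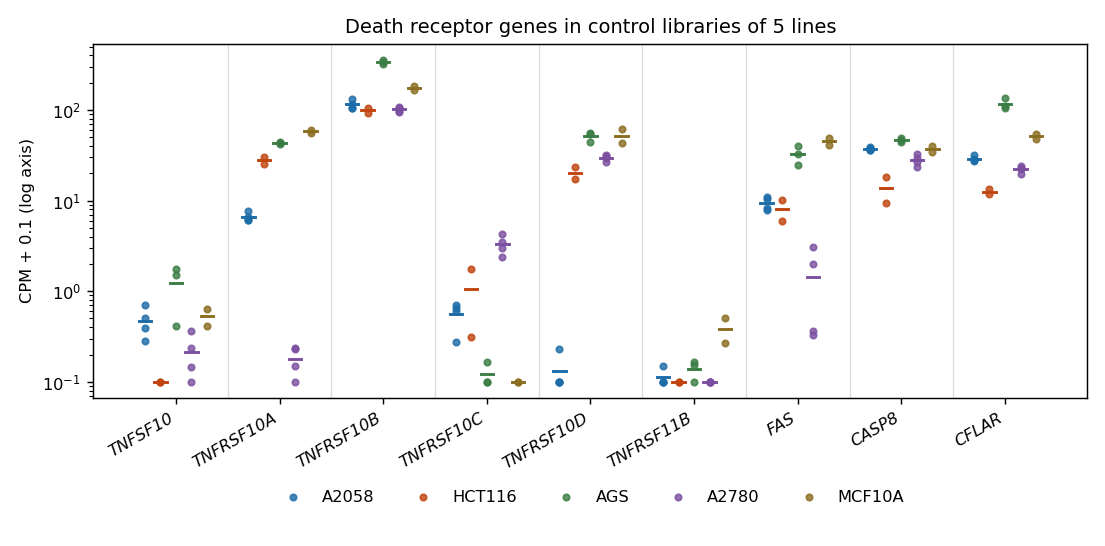
Level of each gene in the control libraries of each line (WT, with TK+ for AGS and A2780), as CPM + 0.1 on a log axis, where points are libraries and bars are means. TNFRSF10B lies near or above 100 in all lines, while TNFRSF10A, TNFRSF10C, TNFRSF10D and FAS each drop to the floor or near it in at least 1 line.

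In the libraries labelled A2058 1q-loss, the ligand, both death receptors, osteoprotegerin, FAS and CASP8 were higher than in WT. Of the 8 members tested, 7 were called higher (edgeR quasi-likelihood test, Benjamini-Hochberg adjusted p under 0.05) and 0 lower. In this comparison 49.6% of 15387 genes were called, 25.3% higher and 24.3% lower, so calls were common throughout. In 6 of the 8 the 4 loss libraries did not overlap the 4 WT libraries, as was the case for 47.5% of all genes tested. Both counts include TNFRSF11B (0 to 1 count in WT) and TNFSF10 (4 to 14 counts in WT). These genes passed the low-count filter through the 1q-loss libraries, where they were high. Neither was tested in 7p-loss or 8q-loss, so their place in the counts followed from the filter. TNFRSF10A, TNFRSF10B, FAS, CASP8 and CFLAR were tested in those comparisons too.

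TNFSF10 was 0.406, 0.606, 0.185 and 0.296 CPM in WT and 1.34, 1.06, 3.31 and 4.00 CPM in 1q-loss, the first 2 from clone 1 and the last 2 from clone 2. All 4 loss libraries lay above all WT libraries, at 22 to 106 counts. The log2 change was 2.69 ± 0.51 (SE, edgeR adjusted p = 0.00144), and without clone 2 it was 1.66.

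TNFRSF10A was 6.54, 5.97, 6.05 and 7.57 CPM in WT and 32.9, 45.5, 29.4 and 39.4 CPM in 1q-loss, a log2 change of 2.49 ± 0.15 (edgeR adjusted p = 6.32e-07). The groups did not overlap, and the values of the 2 clones did. Its antisense neighbour TNFRSF10A-AS1 also differed, from 4 to 12 counts in WT to 54 to 109 counts, and because the strand setting of the counting is not given in the sources used here, reads of the pair cannot be told apart. TNFRSF10B was 106, 115, 133 and 106 CPM in WT and 179, 185, 170.4 and 199 CPM in 1q-loss, a smaller change of 0.67 ± 0.08 (edgeR adjusted p = 8.74e-05). The overlapping gene RHOBTB2 changed by -0.19 (edgeR adjusted p = 0.0731).

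Among the decoys, TNFRSF11B went from 1, 0, 0 and 0 counts in WT to 2356, 2478, 3387 and 4410 counts (112, 119.8, 158 and 167 CPM). The 4 loss libraries were the only ones of the 62 in which osteoprotegerin mRNA was above 21 counts. With 1 count in all WT libraries, the ratio of depth-scaled counts was 12424, with a 95% exact interval of 2229 to 490756 that covers counting error only. TNFRSF10C stayed at 4 to 13 counts in both groups (log2 change -0.32 ± 0.43, edgeR adjusted p = 0.571), and TNFRSF10D was at 0 in all 4 loss libraries.

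FAS was 8.22, 10.4, 10.8 and 7.74 CPM in WT and 30.2, 42.2, 45.9 and 47.5 CPM in 1q-loss, a log2 change of 2.15 ± 0.16 (edgeR adjusted p = 2.81e-06) with no overlap. ACTA2, which overlaps FAS on the other strand, changed by 0.89 (edgeR adjusted p = 0.00256), and reads of this pair cannot be told apart either. CASP8 was 36.5, 38.5, 36.2 and 37.5 CPM in WT and 58.7, 55.9, 64.3 and 61.2 CPM in 1q-loss, a log2 change of 0.69 ± 0.07 (edgeR adjusted p = 1.21e-05). CFLAR, the inhibitor of CASP8, overlapped between groups, at 27.4 to 31.9 CPM in WT, 29.0 and 33.6 CPM in clone 1 and 40.3 and 40.7 CPM in clone 2. Its log2 change was 0.31 ± 0.11 (edgeR adjusted p = 0.0442), and this call did not hold with the libraries of each clone summed (adjusted p = 0.0768) or without clone 2 (0.11, adjusted p = 0.464).

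**Figure D2:**
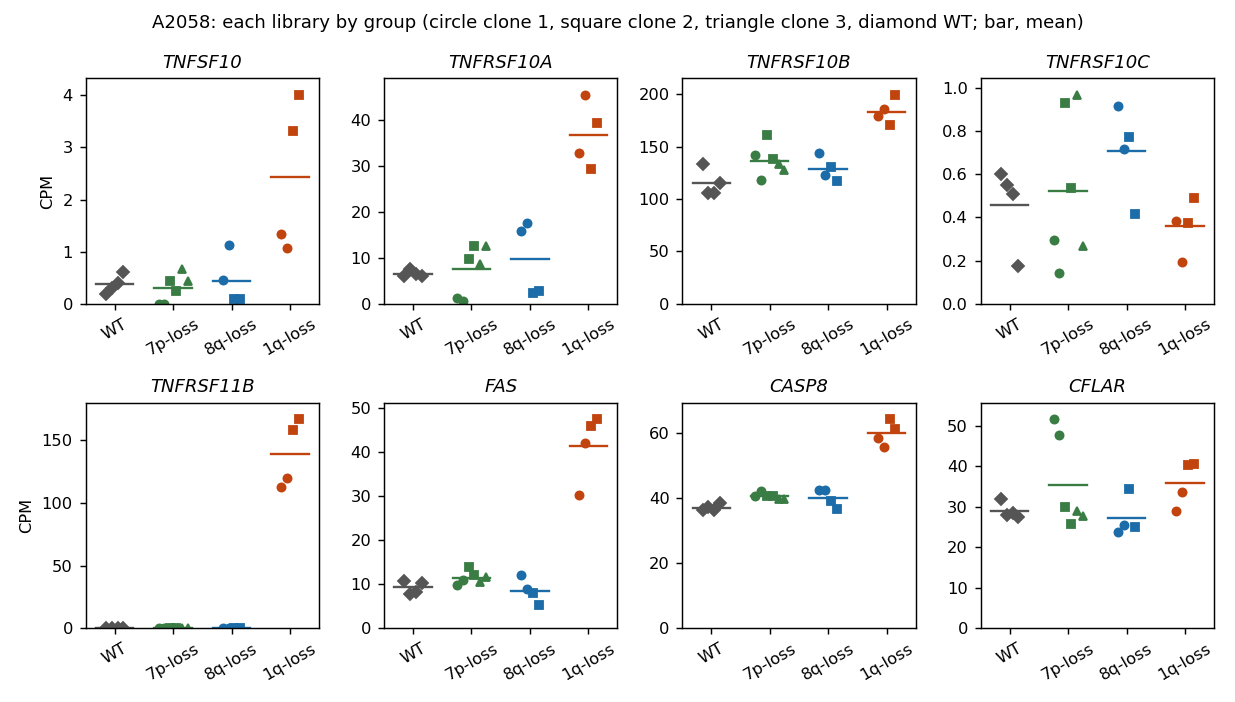
CPM of 8 genes in each A2058 library by group, on linear axes from 0, with clones shown by symbol and group means as bars. TNFRSF11B is near 0 outside the 1q-loss group, where it is 112 to 167 CPM, and TNFRSF10A differs between clones of the 7p-loss and 8q-loss groups.

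The 1q-loss clones were also set against the 10 libraries of the 7p-loss and 8q-loss clones, which were made with the same ReDACT version. Here 6 of 8 members were called higher and 0 lower, with 36% of 16015 genes called, 17.1% higher and 18.9% lower. The 6 include TNFRSF11B and TNFSF10, at most 0.146 and 1.12 CPM in the 10 other libraries. Both passed the low-count filter through the 1q-loss libraries, so their place in this count followed from the filter. FAS was 1.99 ± 0.19 higher on the log2 scale, CASP8 0.55 ± 0.06, TNFRSF10B 0.44 ± 0.08, TNFRSF10A 2.11 ± 0.60 and TNFSF10 2.74 ± 0.69, with edgeR adjusted p of 1.13e-06, 3.7e-06, 0.000549, 0.0125 and 0.00574. With the libraries of each clone summed, TNFRSF10A (adjusted p = 0.131) and TNFSF10 (adjusted p = 0.11) were no longer called. TNFRSF10A was also no longer called without 1q-loss clone 1 (adjusted p = 0.0836) or clone 2 (0.0657), and TNFSF10 without clone 2 (1.74, adjusted p = 0.231).

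Lineage genes differed in the same 4 libraries. The 4 melanocyte markers SOX10, MITF, PMEL and MLANA summed to 43.8 to 133 CPM in 1q-loss, 1559 to 2580 in WT, 905 to 1808 in 7p-loss and 1755 to 2617 in 8q-loss. None of the 4 was at 0 in 1q-loss. The endothelial marker PECAM1 was 7.11 to 17.8 CPM in 1q-loss and at most 0.618 CPM in the other A2058 libraries, while PTPRC and CD3E were at most 0.0954 CPM in 1q-loss. The part of these lineage differences in the receptor values was not tested, and fewer cells of a type and less RNA per cell cannot be told apart in bulk RNA.

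The wider lists had been chosen with earlier results of these data known, so their direction is not independent evidence. Their counts in A2058 1q-loss are read against the 49.6% of all genes called. Of 12 interferon-induced genes, 10 were higher and 0 lower (median log2 change 1.83), among them IFIT3 (2.21) and OAS1 (2.25). Of 12 p53 targets other than the members, 1 was higher and 5 lower (median -0.16), a share called close to that of all genes. The higher one was the cell cycle inhibitor CDKN1A (2.10, 10.7 to 28.1 CPM in WT and 46.1 to 111 in 1q-loss), and the lower ones included FDXR (-0.86) and ZMAT3 (-0.34), with CCNG1, MDM2 and SESN1 named after their values were seen. Of 8 tested other death ligands and receptors, 5 were higher, with TNFRSF21 (1.96) and TNFRSF12A (0.74) among them and TNFSF15, TNFRSF1A and TNFRSF25 named after their values were seen, and TNFRSF11A, the receptor for RANKL, was lower (-2.16).

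Of 14 tested adaptors and ubiquitin regulators of the receptor complex, 5 were higher and 1 lower (median 0.10), a share called close to that of all genes. MLKL, the executor of necroptosis, rose by 1.28 and the deubiquitinase CYLD by 0.92, CASP10, RBCK1 and TNFAIP3 (named after their values were seen) were the other higher ones, and SHARPIN was lower by a log2 change of -0.21. The 5 called of 12 downstream caspases and mitochondrial genes were likewise close to that share. Of these 2 were higher, with the caspase inhibitor XIAP (0.29) among them, and 3 were lower, with BAK1 and APAF1, named after their values were seen, among them. Of 10 ER stress genes, 5 were higher and 0 lower (median 0.62), a share called close to that of all genes, with DNAJB9 (1.13) and SESN2 (0.68) among them and TRIB3, HSPA5 and XBP1 named after their values were seen. DDIT3, which encodes the ER stress factor CHOP, was not called (-0.12, edgeR adjusted p = 0.427).

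Loss of 7p or 8q in the same line, against the same 4 WT libraries, gave no call among the members. In 7p-loss 0 of 6 tested were called (2 at an unadjusted p under 0.05, and 0 by DESeq2), with 0.908% of 15305 genes called. In 8q-loss 0 of 6 were called (0 at an unadjusted p under 0.05, and 0 by DESeq2), with 2.03% of 15141 genes called. In 7p-loss 1 of 6 members did not overlap WT (4.92% of all genes), and in 8q-loss 0 of 6 (8.69%). The 1 was CASP8, at 39.7 to 42.3 CPM in 7p-loss and above all WT libraries, but its log2 change was only 0.13 ± 0.06 (edgeR adjusted p = 0.36). TNFRSF11B, on the lost 8q, was at 0 to 3 counts in 8q-loss and 0 to 1 in WT, so no effect of its own arm could be measured.

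TNFRSF10A differed between clones of 1 arm loss in 7p-loss and 8q-loss. In 7p-loss, clone 1 held 1.19 and 0.678 CPM, clone 2 9.85 and 12.6 CPM and clone 3 8.64 and 12.6 CPM, against 5.97 to 7.57 CPM in WT. In 8q-loss, clone 1 held 15.9 and 17.6 CPM and clone 2 2.36 and 2.83 CPM, so the 2 clones lay on opposite sides of WT. The mean log2 change was 0.22 ± 0.67 for 7p-loss and 0.56 ± 0.57 for 8q-loss, neither called. Without 7p-loss clone 1 it was 0.74 (edgeR adjusted p = 0.0201), without 8q-loss clone 1 it was -1.34 (adjusted p = 0.0079) and without 8q-loss clone 2 it was 1.35 (adjusted p = 0.00179). The median shift of the genes within 5 Mb of the receptor cluster was between -0.02 and 0.10 in these libraries, while the antisense neighbour TNFRSF10A-AS1 spanned 1 to 21 counts in 7p-loss and 0 to 34 counts in 8q-loss. TNFRSF10C, at 4 to 22 counts, had changes of -0.78, 0.64 and 0.26 in 7p-loss clones 1, 2 and 3. CFLAR stood apart in 1 of these clones too, at 51.6 and 47.7 CPM in 7p-loss clone 1 against 25.7 to 29.9 CPM in clones 2 and 3.

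On the targeted arms, CYCS, the cytochrome c gene on 7p, was lower in 7p-loss (-0.59, edgeR adjusted p = 0.00793), and SHARPIN on 8q was lower in 8q-loss (-0.67, adjusted p = 0.00283). RRM2B, a p53 target on 8q, was not called (-0.43, adjusted p = 0.112). OAS1 (1.89) was the only called interferon-induced gene of 12 in 8q-loss, and SESN2 (-0.65) the only called ER stress gene of 10.

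In A2780, loss of 1q went with higher DR5 and DcR2. Of 6 members tested against the 4 WT and TK+ libraries, 2 were called higher and 0 lower, with 11.8% of 15044 genes called, 5.95% higher and 5.88% lower. The members' median log2 change was 0.61, against 0.01 for all genes tested. TNFRSF10B was 98.1 and 94.2 CPM in WT, 107 and 106 CPM in TK+, and 146 (lowest), 154 (median) and 180.0 (highest) CPM in 1q-loss. All 6 loss libraries exceeded all 4 controls, and 2 of 6 members did not overlap, against 13.1% of all genes. TNFRSF10B had a log2 change of 0.67 ± 0.08 (edgeR adjusted p = 0.000431).

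TNFRSF10D was 31.5 and 29.3 CPM in WT, 30.9 and 26.6 CPM in TK+, and 61.9 (lowest), 68.8 (median) and 81.7 (highest) CPM in 1q-loss, again with no overlap. Its log2 change was 1.24 ± 0.09 (edgeR adjusted p = 4.94e-05), and clones 2, 5 and 6 had changes of 1.25, 1.37 and 1.10. For TNFRSF10B these were 0.83, 0.59 and 0.57. The median shift of 59 genes within 5 Mb of the receptors was 0.25 and 0.19 in the libraries of clone 2 and 0.03 to 0.10 in those of clones 5 and 6, and its part in the receptor values was not tested. Against the TK+ libraries only, both genes were called too, at 0.59 (adjusted p = 0.0145) and 1.28 (adjusted p = 0.00118). The adjacent TNFRSF10C was 2.26 and 2.91 CPM in WT, 4.19 and 3.35 CPM in TK+ and 4.10 to 5.20 CPM in 1q-loss (0.55 ± 0.17, edgeR adjusted p = 0.0647). DESeq2 called it (adjusted p = 0.0282), and so did edgeR without TK+ replicate 1 (0.71, adjusted p = 0.0317).

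FAS in A2780 separated the 2 control groups. It was 66 and 38 counts in WT (2.98 and 1.87 CPM) but 6 and 5 counts in TK+ (0.264 and 0.229 CPM), a log2 change of -3.27 ± 0.46 in TK+ against WT (edgeR adjusted p = 0.00046). It was the only 1 of 6 members called in that comparison, in which 11.2% of 14888 genes were called, 5.16% higher and 6.05% lower. ACTA2, on the opposite strand, was 1760 to 1951 counts in WT and 98 to 117 counts in TK+ (-4.18, edgeR adjusted p = 6.06e-10). Without a known strand setting, reads of FAS and of the far more abundant ACTA2 cannot be told apart in these values. In 1q-loss, FAS was 6.55 and 6.03 CPM in clone 2 and 1.45 to 2.15 CPM in clones 5 and 6. The keratin gene KRT18 was 38.4 and 38.6 CPM in WT, 2.25 and 3.30 in TK+, 39.4 and 42.9 in clone 2 and 3.22 to 6.99 in clones 5 and 6, and its part in the FAS values was not tested. The change of FAS with 1q loss was 1.26 ± 0.74 (edgeR adjusted p = 0.31), and it was 0.34 without clone 2 and 3.67 (adjusted p = 0.0533) against TK+ only.

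CASP8 (0.28 ± 0.11, edgeR adjusted p = 0.126) and CFLAR (0.03 ± 0.10, adjusted p = 0.878) were not called in A2780 1q-loss, and TNFRSF10A stayed at 0 or 1 count. Of 12 p53 targets, 10 were higher and 0 lower (median 0.60), with CDKN1A at 1.76 (20.2 to 32.8 CPM in controls, 43.0 to 167 in 1q-loss), ZMAT3 at 0.98, FDXR at 0.81 and RRM2B at 0.61. Of 10 tested interferon-induced genes, 2 were higher, with IFIT3 (1.47) among them, and 0 lower. Of 10 ER stress genes 4 were higher, ATF3 (1.78), DNAJB9 (0.67), SESN2 (0.59) and ASNS, the last named after its value was seen. TNFRSF12A (1.01) was the only 1 called of 5 tested other death ligands and receptors, and CYLD (0.42) and BIRC2, named after its value was seen, were the called adaptors.

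In HCT116, loss of 8q gave no called member. Of 7 tested, 0 were called (2 at an unadjusted p under 0.05, and 0 by DESeq2), with 0.14% of 15659 genes called. In 2 of the 7 the groups did not overlap, against 14.2% of all genes. The clones also differed outside 8q, as the median shift of 270 genes of 7p was 0.43 and 0.40 in clone 1 and -0.0048 and -0.0248 in clone 2, and the part of this in the member values was not tested. FAS was 5.89 and 10.02 CPM in WT, 3.13 and 2.96 CPM in clone 1 and 1.32 and 0.839 CPM in clone 2, with no overlap. The log2 change was -1.95 ± 0.54 (edgeR adjusted p = 0.447), and with no filter on low counts it was called (adjusted p = 0.0389). ACTA2 went from 246 to 283 counts in WT to 2 to 34 counts (-3.95, edgeR adjusted p = 0.0663), and reads of FAS and ACTA2 cannot be told apart here either.

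TNFRSF10B in HCT116 was 105 and 93.4 CPM in WT, 51.1 and 49.6 CPM in clone 1 and 74.4 and 70.8 CPM in clone 2 (-0.69 ± 0.27, edgeR adjusted p = 0.788), also with no overlap. TNFRSF10A did not follow it, at 25.4 and 30.4 CPM in WT and 28.8 to 35.9 CPM in 8q-loss (0.19 ± 0.28). TNFRSF10D differed between clones, at 10.7 and 13.5 CPM in clone 1 and 25.2 and 24.0 CPM in clone 2 against 17.0 and 23.3 CPM in WT. The 2 WT libraries differed from each other in CASP8 (9.36 and 18.2 CPM) and TNFRSF10C (47 and 5 counts), and both changes turned sign with 1 WT library left out (CASP8 from -0.22 to 0.34 without replicate 2, TNFRSF10C from -1.07 to 1.07 without replicate 1). Of 12 p53 targets 2 were lower and 0 higher (median -0.94), CDKN1A (-3.26, 501 to 708 CPM in WT and 36.2 to 92.7 in 8q-loss) and RPS27L, the latter named after its value was seen. At an unadjusted p under 0.05 with edgeR there were 7 of the 12. RRM2B, 1 of the 12 and on the lost 8q, was 20.6 and 27.8 CPM in WT and 5.38 to 10.1 CPM in 8q-loss, not called. SHARPIN, also on 8q, was 69.0 and 116 CPM in WT and 30.7 to 70.2 CPM in 8q-loss, not called.

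**Figure D3:**
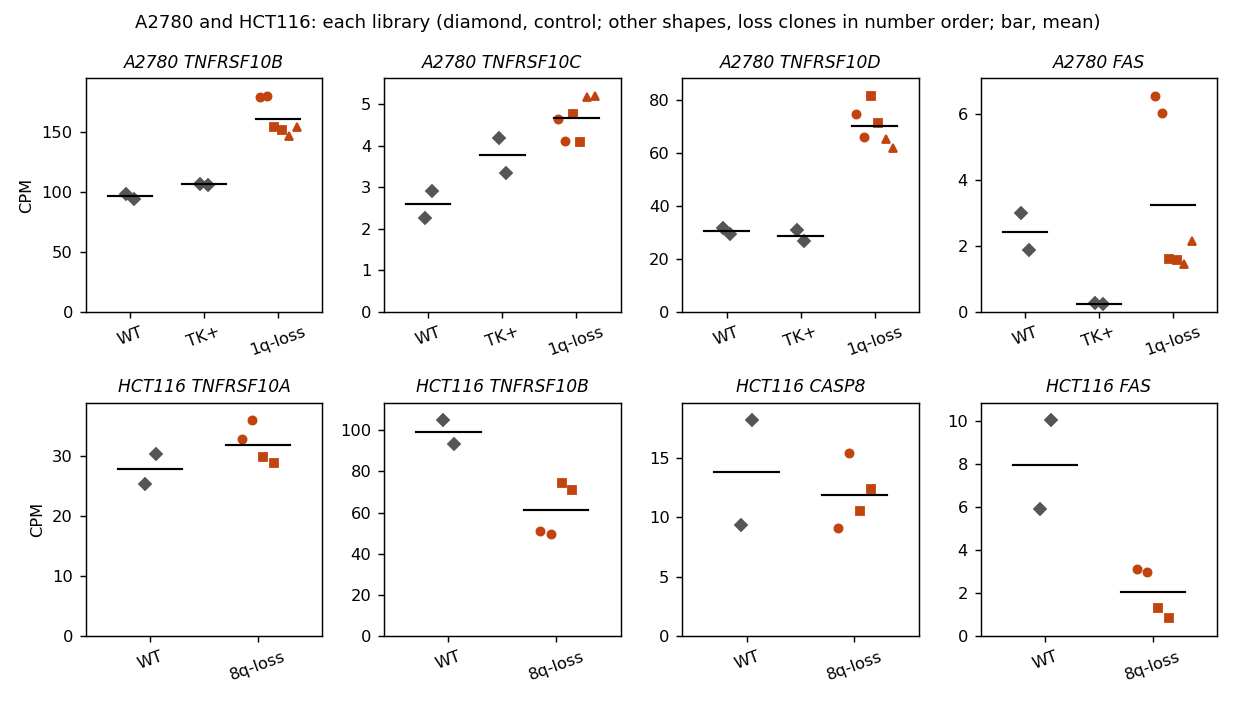
CPM of 4 genes in each A2780 library (top) and each HCT116 library (bottom) on linear axes from 0, with controls as diamonds, loss clones by symbol and group means as bars. TNFRSF10B and TNFRSF10D of A2780 1q-loss lie above all controls, and FAS of HCT116 8q-loss lies below both WT libraries.

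In AGS, loss of 1q gave no called member among 7 tested (0 at an unadjusted p under 0.05, and 0 by DESeq2), with 7.55% of 14988 genes called. TNFRSF10A, TNFRSF10B and TNFRSF10D of 8p were lowest in clone 4, but TNFRSF10B lay below all controls in 4 of 5 loss clones and TNFRSF10D in 2. For TNFRSF10B these were clones 1, 4, 6 and 7, made by ReDACT-NS. Clone 11, made by ReDACT-CO, lay above all controls, and the part of the version was not tested. TNFRSF10A was 41.8 CPM in WT, 43.1 and 43.6 CPM in TK+ and 45.6, 21.3, 48.8, 51.7 and 48.2 CPM in loss clones 1, 4, 6, 7 and 11. TNFRSF10B was 355 CPM in WT, 322 and 342 CPM in TK+ and 256, 124, 288, 273 and 416 CPM in the same clones. TNFRSF10D was 56.2 CPM in WT, 44.5 and 53.8 CPM in TK+ and 33.1, 17.1, 52.9, 52.3 and 45.7 CPM in these clones.

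Clone 4 was the lowest AGS library for all 3 genes, with log2 changes of -1.005, -1.45 and -1.58. Its median shift was -0.57 over 202 genes of 8p and -1.05 over 56 genes within 5 Mb of the receptors, while the other 4 loss clones had shifts of 0.03 to 0.09 on 8p. The 3 receptors were low in a clone whose neighbouring genes were low, and the part of this was not tested. Clone 1, with TNFRSF10B and TNFRSF10D also below all controls, had a shift of 0.013 within 5 Mb of the receptors. Without clone 4 the group changes were 0.19, -0.13 and -0.15, none called.

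CASP8 in AGS was 38.7 to 43.8 CPM in the 5 loss clones and 44.7 to 48.8 CPM in controls, the only 1 of 7 members with no overlap (20.3% of all genes), with a log2 change of -0.18 ± 0.09 (edgeR adjusted p = 0.248). FAS was 24.6 to 40.1 CPM in controls and 36.8 to 51.2 CPM in loss clones (0.35 ± 0.17, adjusted p = 0.23), and CFLAR changed by 0.04 ± 0.15. TNFSF10 was 6 counts in WT, 22 and 28 counts in TK+ and 2, 0, 12, 10 and 2 counts in the loss clones (-1.77 ± 0.84, adjusted p = 0.219). Of 12 interferon-induced genes, 5 were lower and 0 higher (median -0.72), with IRF7, IRF9 and IFI6, named after their values were seen, among them. Of 12 downstream caspases and mitochondrial genes, 1 was higher (CYCS, 0.59) and 2 lower (XIAP, -0.39, among them). Of 10 ER stress genes, 1 was higher (ATF3, 0.83) and 2 lower, DNAJB9 (-0.97) and ASNS, the latter named after its value was seen. MLKL (-0.91) was the only 1 called of 14 adaptors, TNFRSF11A (-1.55) the only 1 of 7 other death ligands and receptors, and 0 of 12 p53 targets were called (4 at an unadjusted p under 0.05 with edgeR). Of the markers, CDH17 was lower in all 1q-loss libraries than in all controls. KRT18 was higher, at 1624 to 2284 CPM in 1q-loss, 1229 CPM in WT and 1006 and 1500 CPM in TK+. LYZ overlapped between 1q-loss and TK+. The part of these marker differences in the values of this paragraph was not tested.

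In MCF10A, loss of 1q called 0 of 7 members without hRASV12 (1 at an unadjusted p under 0.05) and 0 of 8 with it (2 at an unadjusted p under 0.05). The background was 2.04% of 15666 genes and 0.214% of 15851 genes called. TNFRSF10B was 183 and 164 CPM in WT and 185 (lowest), 225 (median) and 237 (highest) CPM in 1q-loss, a log2 change of 0.34 ± 0.10 (edgeR adjusted p = 0.138). With hRASV12 it was 194 and 188 CPM in hRas WT and 208, 240.4 and 302 CPM (lowest, median and highest) in hRas 1q-loss, a change of 0.38 ± 0.14 (adjusted p = 0.298). All 8 loss libraries lay above both controls in each set. Without hRASV12 1 of 7 members did not overlap (11.7% of all genes), and with it 2 of 8 (17.5%). DESeq2 called the first (adjusted p = 0.0491) and 0 members in the second, and edgeR called the first without clone 1 (0.40, adjusted p = 0.029).

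TNFRSF10D and CFLAR depended on the clone. With hRASV12, TNFRSF10D was 63.2 and 55.3 CPM in hRas WT, 37.4 and 40.5 CPM in clone 1, 204 and 197 CPM in clone 2, 80.7 and 78.0 CPM in clone 3 and 120.4 and 119 CPM in clone 4. The group change was 0.89 ± 0.61 (edgeR adjusted p = 0.491). Both libraries of clone 2 also held 0.513 and 0.634 CPM of the basal marker TP63 and 84.8 and 89.5 CPM of KRT17, against at least 39.1 and 1310 CPM in the other hRas 1q-loss clones. KRT5 was also lowest in the 2 libraries of clone 2, with at least 2392 CPM in the other clones. The fourth basal marker, KRT14, was 65.8 and 56.8 CPM in clone 2 and 52.2 and 55.4 CPM in hRas WT, and was lowest in clone 4 (6.13 and 5.23 CPM). The part of these differences in TNFRSF10D and CFLAR was not tested. Without clone 2 the changes were 0.42 for TNFRSF10D, 0.28 for TNFRSF10B and 0.69 for CFLAR, none called. Without hRASV12, clone 1 was again low (37.3 and 33.3 CPM), and the other clones held 52.0 to 71.8 CPM against 61.5 and 42.5 CPM in WT.

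CFLAR was highest in clone 4 of both sets. Without hRASV12 it was 53.9 and 48.2 CPM in WT, 89.1 and 78.6 CPM in clone 4 and 45.5 to 57.4 CPM in the other 3 clones. With hRASV12 it was 44.5 and 42.5 CPM in hRas WT, 96.9 and 101 CPM in clone 4 and 53.5 to 71.0 CPM in the others, so all 8 loss libraries exceeded both controls (0.70 ± 0.27, edgeR adjusted p = 0.305). FAS (0.17 and 0.15), CASP8 (0.08 and -0.08) and TNFRSF10A (0.14 and -0.03) had log2 changes of at most 0.17 in size in the sets without and with hRASV12, none called. TNFSF10 was at most 23 counts and TNFRSF11B at most 21 counts in all 20 libraries.

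**Figure D4:**
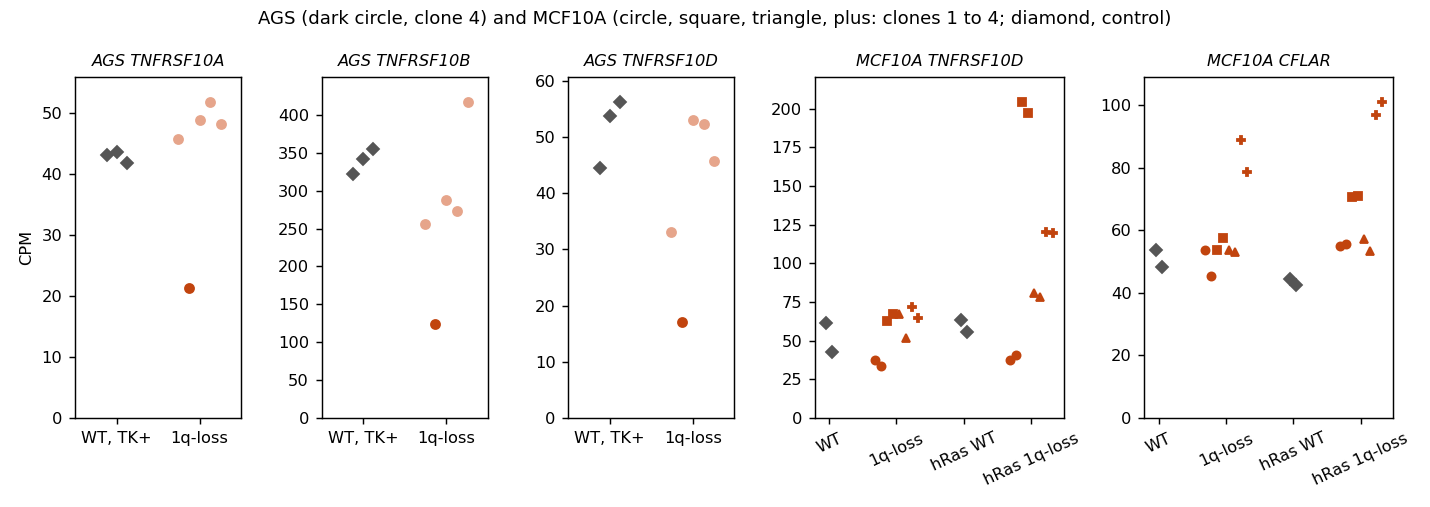
CPM of TNFRSF10A, TNFRSF10B and TNFRSF10D in each AGS library (left 3 panels) and of TNFRSF10D and CFLAR in each MCF10A library (right 2 panels), on linear axes from 0. AGS clone 4 (dark circle) is the lowest library for each of the 3, and MCF10A clone 4 (plus signs) is the highest for CFLAR in both sets.

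Expression of hRASV12 by itself gave 0 called members of 6 in cells that kept 1q (hRas WT against WT, 2 at an unadjusted p under 0.05, 0 by DESeq2, 1.62% of 14646 genes called). Among 1q-loss clones, hRASV12 gave 0 of 6 (2 at an unadjusted p under 0.05, 0 by DESeq2, 1.2% of 14332 genes called). Clones of the same number in the 2 sets varied together over all genes (correlations of deviations 0.269 to 0.602), so the number was also used as a block. With the block 4 members were called, with 15.1% of genes called, namely TNFRSF10D (0.76 ± 0.155, edgeR adjusted p = 0.00669), CFLAR (0.21 ± 0.05, adjusted p = 0.0192), TNFRSF10B (0.17 ± 0.05, adjusted p = 0.0277) and TNFRSF10A (-0.27 ± 0.09, adjusted p = 0.0471). The block counts the libraries of 1 clone as replicates. With the libraries of each clone summed and no block, 0 of 16122 genes were called, and TNFRSF10D had an adjusted p of 0.744 with edgeR. That fit drops the pairing by clone number, so it does not decide the blocked calls. Whether they hold with summed clones and the block together was not tested. Its change without the block was 0.95, and 0.49 without hRas 1q-loss clone 2 and 1.23 (adjusted p = 0.00606) without hRas 1q-loss clone 1. The interaction of 1q loss and hRASV12 called 0 of 8 members (0 at an unadjusted p under 0.05, 0 by DESeq2) and 0% of 16492 genes, in a fit with no block on clone number. With clone number as a block, an alternative chosen after seeing the data, edgeR again called 0 of 8 members and 1 of 16492 genes. CFLAR was the 1 member at an unadjusted p under 0.05 there (0.43 ± 0.117, edgeR adjusted p = 0.602).

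Of the members tested in all 25 loss clones, none moved in 1 direction throughout. TNFRSF10B was above the control mean in 19 of 25 clones, with log2 changes from -1.45 (AGS clone 4) to 0.83 (A2780 clone 2), and was called in 2 of 8 loss comparisons, more than any other member. FAS was above in 21 of 25 clones, from -2.79 (HCT116 clone 2) to 2.81 (A2780 clone 2). In both of these lines its reads cannot be told apart from those of ACTA2. CASP8 was above in 14 of 25 clones and stayed within -0.44 to 0.76, and CFLAR was above in 14 of 25, within -0.33 to 1.19. TNFRSF10A ranged from -2.74 to 2.56 over the 22 clones in which it was tested and TNFRSF10D from -1.58 to 1.76 over 18. The ligand TNFSF10, at low counts, was above in only 4 of the 15 clones in which it was tested, from -3.14 to 3.09. Clones of a line share their controls, so these counts are a description. MCF10A clones 1 to 4 enter once without and once with hRASV12. Clones of the same number varied together, so the 25 may not all be separate clones.

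**Figure D5:**
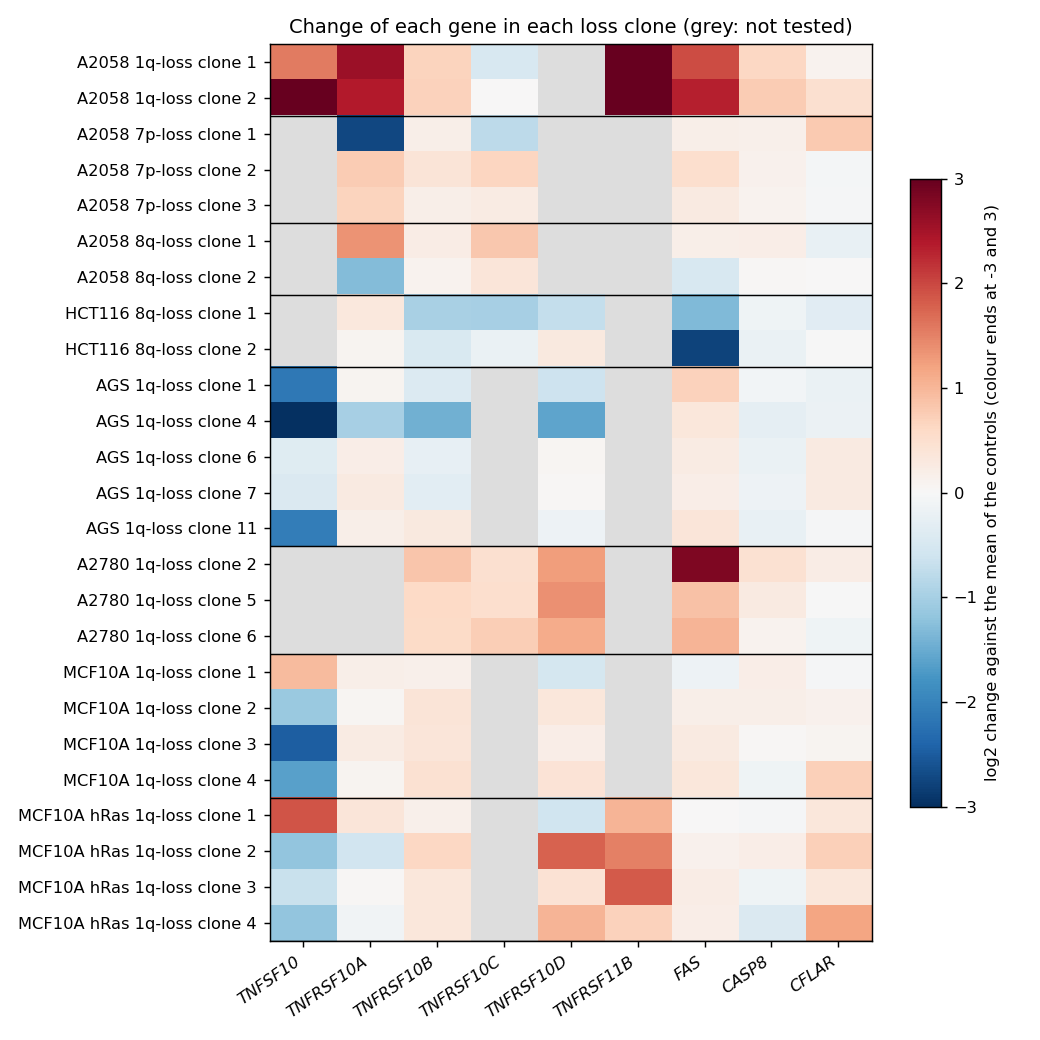
Log2 change of each gene in each of 25 loss clones against the mean of the controls, as colour from blue (lower) through white to red (higher), with grey for genes not tested. Colour ends at a size of 3. The A2058 1q-loss clones are red for TNFSF10, TNFRSF10A, TNFRSF10B, TNFRSF11B and FAS, and AGS clone 4 is blue for TNFRSF10A, TNFRSF10B and TNFRSF10D.

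Genes most like 4 members were found over all 62 libraries by Pearson correlation of log2 CPM minus the control mean of the line, among 10898 genes. For TNFRSF10B they were DUSP6 (r = 0.819, a phosphatase of the ERK pathway) and the interferon-induced IFIT3 (0.815). For FAS they were CLCN4 (0.838) and the p53 target CDKN1A (0.787). For CASP8 they were NCEH1 (0.772) and KDSR (0.760), which fell to 0.624 and 0.639 without the A2058 1q-loss libraries, while all others stayed between 0.755 and 0.840 over the remaining 58 libraries. For CFLAR they were LRP1 (0.828) and YPEL5 (0.788). Libraries of 1 clone or control group share cells, so these values describe the set and carry no p.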

How the data were processed

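Polyadenylated RNA was captured on poly-T beads and primed with random hexamers after a Qiagen extraction, per the labels' protocols. Reads were aligned with HISAT2 2.0.5 and counted with featureCounts 1.5.0-p3, per the submitters' processing notes, and the strand setting is not given in the sources used here. The deposited values are raw counts per gene, 1 table for each of 62 libraries. The notes name hg38, but the A2780 tables carry GRCh37 coordinates. No library was left out and none of 42 pairs of libraries of 1 clone or group agreed within sampling noise.

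Genes were filtered with filterByExpr (minimum count 10, minimum total 15) and TMM scaling was applied, and edgeR 4.0.16 gave quasi-likelihood tests, two-sided, on the libraries of each of 13 comparisons, with Benjamini-Hochberg adjustment over all genes tested and calls at an adjusted p under 0.05. SE was taken as the absolute log2 change over the root of its F statistic. Values per clone are log2 CPM with a prior count of 2. DESeq2 1.42.0, RLE scaling, no filter, summed clones, replicate blocks and left-out libraries and clones were alternatives. Clone numbers paired the MCF10A hRas 1q-loss and 1q-loss libraries (same-number correlations of 0.269 to 0.602, different numbers -0.338 to 0.043). R 4.3.3 and Python 3.11.15 were used, and the fit was tested on simulated data.

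The 9 genes, the lists and the tests were chosen with earlier results of these data known. Named list genes are those on a targeted arm, the 3 of each list called in the most of 8 loss comparisons, and CDKN1A and DDIT3, and for each member tested in all 8 the 2 most similar genes. Nothing establishes whether replicates came from separate cultures beyond the labels' term biological replicate in MCF10A, so p-values measure the spread between these libraries. Some genes of the lists are not reported here.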

Additional observations from a re-analysis of the deposited data

Results flagged for a closer look

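Of 65 sets of 1 member in 1 group of 4 to 8 libraries, 3 held a library far from the others, and chance gives about 1 in 20. In A2058 8q-loss, CFLAR was 34.4 CPM in clone 2 replicate 1 and 23.8 to 25.5 CPM in the other 3 libraries. In AGS 1q-loss, FAS was 51.2 CPM in clone 1 and 36.8 to 40.8 CPM in the other 4 clones, and TNFRSF10A was 21.3 CPM in clone 4 and 45.6 to 51.7 CPM in the others.

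In 4 of 66 pairs of comparisons of 1 member under loss of the same arm, all loss libraries lay above the mean of the controls in 1 line and all lay below it in the other, and these differences were not tested. In 3 of the comparisons involved, loss libraries still overlapped single controls, namely TNFSF10 in AGS (clones 6 and 7 at 0.71 and 0.659 CPM against 0.315 CPM in WT), CASP8 in A2780 1q-loss and TNFRSF10B in A2058 8q-loss. TNFSF10 differed by 4.46 on the log2 scale between A2058 1q-loss (2.69) and AGS 1q-loss (-1.77). CASP8 differed by 0.87 between A2058 1q-loss (0.69) and AGS 1q-loss (-0.18), and by -0.46 between AGS 1q-loss (-0.18) and A2780 1q-loss (0.28). TNFRSF10B differed by 0.85 between A2058 8q-loss (0.16) and HCT116 8q-loss (-0.69).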

How the results depend on the processing

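Of 242 alternatives to the 13 counts of called members, 232 stayed within 1.5 times, and of 1260 alternatives to 68 single-member changes 1188 kept direction and call, 42 turned sign, 14 gained a call and 16 lost one. The count rose to 1 in HCT116 with no filter and in MCF10A 1q-loss with DESeq2, and to 4 for hRas 1q-loss against 1q-loss with clone number as a block. Replicate numbers paired the samples in no comparison, and with the replicate block the A2780 TK+ count rose to 2 and TNFRSF10C in A2058 1q-loss turned to 0.17. TNFRSF10C also turned to 0.12 there with WT replicates 1 and 2 only and to -0.14 in 7p-loss with WT replicates 3 and 4 only, and CFLAR in AGS to -0.012 with TK+ controls only. The causes were not tested.

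With 1 library or clone left out, counts ranged from 0 to 1 in A2058 7p-loss, A2058 8q-loss and MCF10A 1q-loss, 0 to 2 in hRas 1q-loss against 1q-loss and 1 to 2 in A2780 TK+. Log2 changes that turned sign ranged for CASP8 from -0.61 to 0.34 in HCT116, -0.021 to 0.18 in MCF10A and -0.19 to 0.024 with hRas. For CFLAR they ranged from -0.028 to 0.36 (A2058 1q-loss against 7p-loss and 8q-loss), -0.041 to 0.42 (7p-loss), -0.24 to 0.03 (A2058 8q-loss), -0.068 to 0.11 (A2780), -0.025 to 0.15 (AGS) and -0.32 to 0.034 (HCT116). FAS ranged from -0.49 to 0.17 in A2058 8q-loss. TNFRSF10A ranged from -0.18 to 0.74 (7p-loss), -1.34 to 1.35 (A2058 8q-loss), -0.057 to 0.19 (AGS) and -0.19 to 0.11 (hRas 1q-loss). TNFRSF10C ranged from -0.16 to 0.56 (7p-loss) and -1.89 to 1.07 (HCT116), and TNFRSF10D from -0.73 to 0.30 (HCT116) and -0.12 to 0.42 (MCF10A).

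Genes called over the whole table differed more between tools, with 22 by edgeR and 116 by DESeq2 in HCT116, 34 and 359 in hRas 1q-loss, 139 and 448 in 7p-loss, 308 and 666 in A2058 8q-loss, 1131 and 2116 in AGS and 319 and 547 in MCF10A. With clones summed, 55 genes were called in 7p-loss, 725 in A2780 (1780 with libraries kept separate) and 0 in hRas 1q-loss, and with the replicate block 1 in 7p-loss, 39 in A2058 8q-loss, 8 in HCT116 and 2 in hRas 1q-loss. With no filter, 133 genes were called in HCT116. TNFSF10, TNFRSF10C and TNFRSF11B passed the filter on low counts in 4, 5 and 2 of the 8 loss comparisons and were not compared in the others.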
